A study of Mus musculus with 20 samples.

Results

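The cadherins and the non-clustered protocadherins were followed as one group of genes through maps of 5-formylcytosine (5fC) in mouse embryos. Members were the autosomal protein-coding genes whose symbol is Cdh or Pcdh followed by a number in the GENCODE annotation of NCBIM37 (mm9). There were 33 members, 23 cadherins and 10 protocadherins, of 21418 autosomal protein-coding genes. 5fC had been captured from genomic DNA of E11.5 embryos with a cleavable aldehyde-reactive biotin probe, the captured DNA was sequenced, and peaks had been called in each library. The libraries came from WT embryos and from embryos null for *Tdg*, the gene of thymine DNA glycosylase. Null embryos, bred from heterozygous parents, carried 2 copies of a *Tdg* allele that cannot make the catalytic part of the enzyme, since a cassette for resistance to neomycin stands in place of its coding sequence. Hindbrain was taken from 4 WT and 4 *Tdg* null embryos, 1 of each genotype from each of the litters A, O, Q and Z. Heart, liver and carcass, the rest of the dissected embryo, were taken from the *Tdg* null embryo i1 and the WT embryo i6 of the litter pair_a, and from the *Tdg* null embryo i5 and the WT embryo i9 of pair_b. These 12 embryos gave 20 libraries, and 19 were used. Since no embryo gave both hindbrain and another tissue, tissue and litter cannot be told apart wherever hindbrain is compared with heart or carcass.

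5fC is made when TET enzymes oxidise 5-methylcytosine by way of 5-hydroxymethylcytosine, and TDG cuts 5fC out of DNA so that base excision repair can restore an unmodified cytosine. In mammals most of these modified cytosines stand before a guanine, in CpG sites. Cadherins are membrane proteins that join cells through calcium-dependent contacts between their extracellular repeats. Type I classical cadherins such as E-cadherin (*Cdh1*) and N-cadherin (*Cdh2*) and the type II cadherins bind catenins on the inner side of the membrane, which tie them to actin. Many type II cadherins mark groups of neurons, while *Cdh5*, VE-cadherin, holds endothelial cells together. Protocadherins share the extracellular repeats but not the catenin-binding tail, and the delta protocadherins act mainly in the developing nervous system. The clustered protocadherins carry other symbols and were not among the members.

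Each member was measured over its gene body plus 1 kb on each side, here called its region, and its cover is the percentage of the region's bases that lay under peaks of a library. The regions ran from 6.53 kb (*Pcdh8*) to 1552.4 kb (*Pcdh15*), with a median of 95.5 kb against 32.3 kb for the genes tested. Over the ungapped autosomes, peaks covered 2.84 to 8.59% of the bases in the 9 *Tdg* null libraries used and 0.0358 to 0.991% in the 10 WT libraries. The *Tdg* null liver of pair_b held 228 peaks and none in a member, and it was left out. Positions of peaks carry no read counts, so the depth of the libraries is unknown and a region without a peak is not shown to lack 5fC. They hold no expression either, so tissue labels could not be checked against expressed markers, and the deleted part of *Tdg* could not be seen: the *Tdg* region (22.97 kb) held 0 to 2 peaks in *Tdg* null hindbrain and 0 in WT hindbrain. In DNA of a whole tissue, more cells with 5fC at a site and more 5fC per cell cannot be told apart.

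Some stretches of member DNA lay under a peak in all 9 *Tdg* null libraries, and 3 of them are printed to show what such a place looks like. They are introns, and their CpG sites, in capitals, number 13 in the *Cdh23* piece, 7 in the *Cdh6* piece and 5 in the *Cdh13* piece. *Cdh23* encodes a cadherin of the tip links of inner ear hair cells, *Cdh6* a type II cadherin of kidney and neural crest, and *Cdh13* the GPI-anchored T-cadherin, which has no cytoplasmic tail. Each is the middle 300 bases of its stretch on the plus strand of NCBIM37 (mm9), at chr10:60029251-60029550, chr15:12997301-12997600 and chr8:120904401-120904700.
Cdh23 intron: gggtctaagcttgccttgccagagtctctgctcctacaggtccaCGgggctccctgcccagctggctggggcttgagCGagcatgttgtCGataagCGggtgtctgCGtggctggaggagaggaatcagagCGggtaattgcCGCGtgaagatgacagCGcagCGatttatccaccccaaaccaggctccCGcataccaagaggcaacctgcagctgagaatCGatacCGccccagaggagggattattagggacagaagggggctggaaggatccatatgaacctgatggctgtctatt
Cdh6 intron: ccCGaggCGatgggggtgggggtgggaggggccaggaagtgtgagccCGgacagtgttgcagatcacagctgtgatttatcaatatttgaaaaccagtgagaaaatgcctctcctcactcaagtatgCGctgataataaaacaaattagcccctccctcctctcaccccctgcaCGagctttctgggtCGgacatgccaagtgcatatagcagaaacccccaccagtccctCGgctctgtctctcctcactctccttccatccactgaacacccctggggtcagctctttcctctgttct
Cdh13 intron: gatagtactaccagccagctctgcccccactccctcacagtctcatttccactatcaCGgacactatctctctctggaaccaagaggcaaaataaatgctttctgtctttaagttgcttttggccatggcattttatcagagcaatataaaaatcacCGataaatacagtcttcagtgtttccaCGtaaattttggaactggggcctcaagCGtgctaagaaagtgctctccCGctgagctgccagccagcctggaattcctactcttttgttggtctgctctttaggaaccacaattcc

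Other stretches lay under peaks of 1 tissue and not of another. Shown first are 2 that both *Tdg* null heart libraries covered and no other *Tdg* null library did, one upstream of the start of *Cdh16*, the kidney cadherin, at chr8:107148451-107148750, and one in an intron of *Cdh5* at chr8:106634601-106634900. They hold 5 and 4 CpG sites, again in capitals on the plus strand of NCBIM37 (mm9).
Cdh16 upstream: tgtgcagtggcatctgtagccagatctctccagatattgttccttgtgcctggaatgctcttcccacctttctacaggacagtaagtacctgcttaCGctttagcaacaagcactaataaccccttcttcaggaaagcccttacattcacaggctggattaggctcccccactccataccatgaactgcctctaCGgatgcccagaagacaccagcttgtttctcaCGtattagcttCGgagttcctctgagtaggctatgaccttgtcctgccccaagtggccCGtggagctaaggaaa
Cdh5 intron: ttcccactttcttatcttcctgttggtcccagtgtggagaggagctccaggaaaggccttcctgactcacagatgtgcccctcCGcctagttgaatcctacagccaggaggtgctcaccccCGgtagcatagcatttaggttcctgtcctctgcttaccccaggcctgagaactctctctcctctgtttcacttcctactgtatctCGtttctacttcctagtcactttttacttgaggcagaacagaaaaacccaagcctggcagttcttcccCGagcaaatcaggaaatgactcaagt

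The following 3 pieces come from stretches under a peak in all 4 *Tdg* null hindbrain libraries. Those of *Cdh22*, a type II cadherin of the brain (chr2:164946301-164946600) and *Pcdh10*, a delta protocadherin (chr3:45189051-45189350), lay in introns, under peaks of both carcass libraries too, and under no heart peak. That of *Cdh15*, the M-cadherin of muscle precursors (chr8:125388501-125388800), runs over coding sequence and intron, lay under no carcass peak and under 1 heart peak, and also falls within the annotated gene *Gm20388*. The pieces hold 8, 3 and 14 CpG sites.
Cdh22 intron: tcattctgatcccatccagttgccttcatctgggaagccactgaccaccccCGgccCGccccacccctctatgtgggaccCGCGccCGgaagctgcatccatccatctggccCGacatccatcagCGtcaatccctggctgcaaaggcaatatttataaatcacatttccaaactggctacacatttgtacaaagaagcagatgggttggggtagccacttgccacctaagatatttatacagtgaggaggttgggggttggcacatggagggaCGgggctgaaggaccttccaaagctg
Pcdh10 intron: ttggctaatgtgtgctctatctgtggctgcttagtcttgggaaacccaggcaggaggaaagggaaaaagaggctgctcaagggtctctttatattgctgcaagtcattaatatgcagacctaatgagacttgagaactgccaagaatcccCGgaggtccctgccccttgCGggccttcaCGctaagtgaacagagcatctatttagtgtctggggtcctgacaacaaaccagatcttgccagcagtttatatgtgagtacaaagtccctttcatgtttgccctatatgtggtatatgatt
Cdh15 coding and intron: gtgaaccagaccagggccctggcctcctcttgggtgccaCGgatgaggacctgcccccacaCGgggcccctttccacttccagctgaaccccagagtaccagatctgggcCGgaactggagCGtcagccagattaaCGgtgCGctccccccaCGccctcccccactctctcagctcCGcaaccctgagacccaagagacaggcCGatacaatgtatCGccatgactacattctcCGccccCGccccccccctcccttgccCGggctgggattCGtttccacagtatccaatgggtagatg

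The first comparison asked how 5fC peaks in these genes differ between *Tdg* null and WT embryos. In hindbrain, 26 of the 31 members tested had more bases under peaks in every *Tdg* null library than in any WT library (exact permutation test on both sides, p = 0.0286, which adjusted over 14001 genes gave p = 0.0444), and no member was lower in *Tdg* null. This is the smallest p that 4 libraries against 4 can give. *Cdh1*, E-cadherin, had no peak in the 4 WT hindbrain libraries, against a cover of 8.27% in litter A, 6.97% in O, 5.52% in Q and 7.69% in Z in *Tdg* null hindbrain. *Cdh2*, N-cadherin of neural tissue and heart muscle, had 0.135, 0.450, 0.810 and 0% in WT and 6.48, 6.70, 8.14 and 7.87% in *Tdg* null hindbrain, in the same order of litters. *Cdh4*, R-cadherin, had 0.109, 0.828, 2.2 and 0.174% against 9.57, 8.87, 10.8 and 12.2%. For these 3 genes the lowest *Tdg* null library stood well clear of the highest WT library, which was that of litter Q wherever WT had a peak.

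Other genes of this size gave a like share. Of the 14001 genes tested, 64.3% were without overlap in the same direction, and among genes with regions of 0.8 to 1.2 times a member's length the mean over members was 82.7%. The 5 members that overlapped between genotypes were *Cdh7*, *Cdh9*, *Cdh18*, *Cdh19* and *Pcdh12*, and *Pcdh8* and *Pcdh20*, with regions under 10 kb, were not tested. *Cdh7*, a neural type II cadherin, had 0.125, 0, 0.375 and 0.563% in *Tdg* null and 0, 0.188, 0.313 and 0% in WT hindbrain (exact permutation test, adjusted p = 0.568). *Cdh9*, found at synapses, had 1.12, 0, 0.248 and 0.992% in *Tdg* null and no WT peak (exact permutation test, adjusted p = 0.193). *Pcdh12*, a protocadherin of endothelium, had 12.2, 4.66, 0 and 4.66% and no WT peak (adjusted p = 0.193 in the exact permutation test). In these last 2 genes a single *Tdg* null library without a peak made the groups overlap.

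Over all tissues, each litter entering as the mean of its tissues, 28 of 31 members were higher in the *Tdg* null embryo in 6 of 6 litters (p = 0.0313 by an exact permutation of the signs of the 6 differences, two-sided, and 0.0487 after adjustment), as were 64.2% of genes tested and a mean of 82.9% of genes of similar length. The exceptions were *Cdh7*, *Cdh9* and *Pcdh12*, each higher in 5 of 6 litters. Within the 4 hindbrain litters, 28 of 31 members were higher in *Tdg* null in all 4, against 65.3% of genes tested. When each library's bases were divided by its autosomal total, 10 members were without overlap in hindbrain, all higher in *Tdg* null, out of 31 tested and against 39.3% of the genes tested, and 4 of 31 were higher in 6 of 6 litters, against 25.2% of the genes tested. In hindbrain and carcass, WT peaks in members mostly lay where *Tdg* null peaks of the same tissue did, while in the heart of pair_a and in both livers most WT bases lay outside them. In hindbrain 90.1 to 100% of the WT bases in members were under a *Tdg* null peak, in carcass 86.6 and 85.8%, in heart 29 and 77.8%, and in liver 34 and 20%, where a single *Tdg* null library was available. The hindbrain values were taken against 4 *Tdg* null libraries, and those of heart and carcass against 2. Some rest on few WT bases: 1.1 to 39.5 kb in a hindbrain library, 6.2 and 8.1 kb in heart, and 20.6 and 2 kb in liver.

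Outside hindbrain, WT peaks in these genes were few and lay mainly in carcass, the WT tissue with the widest cover of the autosomes (0.991 and 0.845%, pair_a first as in the values that follow, against 0.123 and 0.121% in heart and 0.328 and 0.0358% in liver). *Cdh15*, *Cdh16* and *Pcdh12* had no peak in any WT library, and *Cdh7*, *Cdh19* and *Pcdh10* had WT peaks in hindbrain alone. *Cdh4* had 3.29 and 2.64% in WT carcass, 0.153% in each heart, and 0.501 and 0.153% in liver. *Cdh2* had 1.80 and 2.16% in carcass, 0 and 0.405% in heart, and 0.540 and 0.180% in liver. *Cdh13* had 1.71 and 1.41% in carcass, 0.105 and 0.230% in heart, and 0.489 and 0% in liver. In each of these 3 genes both WT carcass libraries lay above both hearts and both livers. *Cdh1* had 1.60 and 2.18% in carcass and no peak in heart or liver, and *Cdh5* 2.01 and 0.891% in carcass, none in heart and 0.891% in each liver. Without a WT heart peak were also *Cdh22* (2.31 and 2.15% in carcass, 0.319 and 0% in liver), *Cdh10* (0.558 and 0.456%, 0.203 and 0%), *Cdh8* (0.203 and 0.178%, 0.0761 and 0%) and *Cdh12* (0.0417 and 0.25%, 0.0833 and 0%). Among the protocadherins, *Pcdh7* had 1.04 and 0.847% in carcass, 0.194 and 0.0484% in heart, and 0.0968 and 0% in liver. *Pcdh9* and *Pcdh15* had 0.245 to 0.457% in carcass, 0 to 0.0837% in heart and 0 to 0.217% in liver. Of the genes with values in this paragraph, *Cdh12* alone had more bases under peaks in a WT liver than in a WT carcass library. *Cdh5* had equal values in the carcass of pair_b and both livers. Among the other members, *Cdh17* had up to 1.78% in WT liver and no WT carcass peak, and *Cdh20* up to 0.437% against at most 0.262%. *Pcdh1* reached 1.78% in both tissues, with a library at 0 in each.

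In WT hindbrain, in the order A, O, Q and Z, the cover was 0, 0.878, 1.92 and 0% for *Cdh22*, 0.0192, 0.192, 0.738 and 0% for *Cdh13* and 0, 0.203, 0.253 and 0% for *Cdh10*. *Cdh8* (0.152 and 0.254%), *Pcdh9* (0.160 and 0.217%) and *Pcdh15* (0.0387 and 0.122%) had WT hindbrain peaks in litters O and Q alone. *Cdh19* (0.444%, 2 peaks) and *Pcdh10* (0.516%, 1 peak) were covered in litter Q alone, *Pcdh7* had 0, 0.121, 0.0726 and 0.0726%, and *Cdh5* and *Cdh12* had none. Litter Q gave the highest WT hindbrain value in each of these genes with a peak other than *Pcdh7*.

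**Figure D1:**
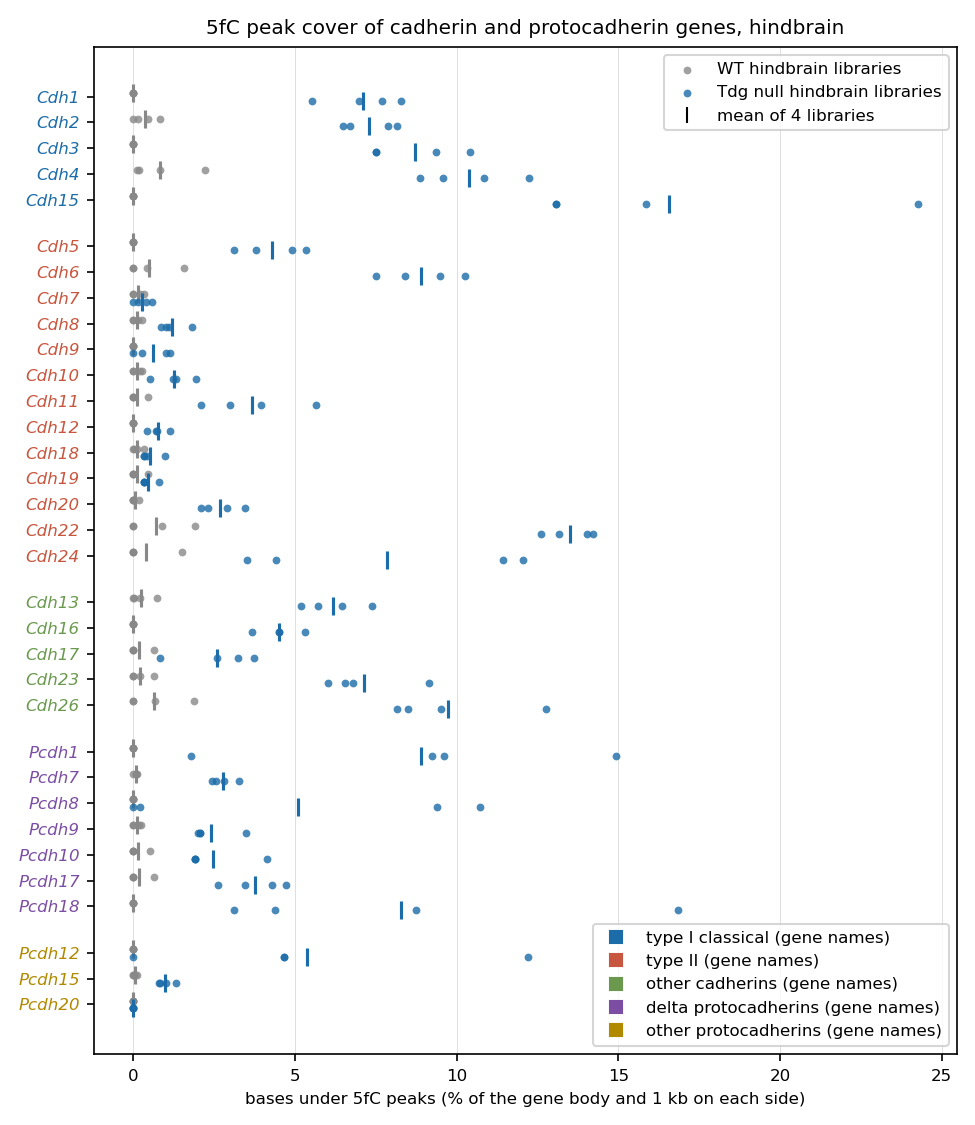
Cover of each of the 33 members (percent of region bases under peaks) in the 4 WT and 4 *Tdg* null hindbrain libraries, grouped by class; dots are libraries and bars the mean of 4. *Cdh15* has the highest mean cover in *Tdg* null hindbrain (16.6%), and 7 type II genes lie near 0 in both genotypes.

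Within *Tdg* null hindbrain, cover ranged from 0 (*Pcdh20*) to a mean of 16.6% ± 5.30 (SD, n = 4; *Cdh15*). *Cdh15* had 24.3% in litter A, 13.1% in O, 15.9% in Q and 13.1% in Z. Ranked among genes of similar length it stood at percentile 98.4, the highest of the members. Next came *Cdh22* at percentile 96.4, with a cover of 12.6, 13.2, 14.04 and 14.2%, and *Cdh4* at 93.4. At the other end stood *Cdh7* (percentile 5.45), *Cdh19*, a cadherin of Schwann cell precursors (8.20), and *Cdh12*, a neuronal type II cadherin (8.76). *Cdh19* had a cover of 0.333, 0.333, 0.776 and 0.333%, 1 or 2 peaks in a region of 90.2 kb. *Cdh12*, with 480.1 kb, held 3, 7, 8 and 13 peaks and had a cover of 0.417, 0.708, 0.729 and 1.13%. Neither *Cdh15* nor *Cdh22* fell below 12.6% in any of the 4 libraries, and neither *Cdh12* nor *Cdh19* passed 1.13%.

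The classes held different places in this ranking, which is a description and was not tested. The 5 type I cadherins all ranked above the middle, from 67.3 (*Cdh2*) to 98.4, with *Cdh1* at 77.5 and *Cdh3*, P-cadherin, at 87.1. The 13 type II cadherins had a median of 14.5 and spread from 5.45 to 96.4. Among them *Cdh7*, *Cdh8*, *Cdh9*, *Cdh10*, *Cdh12*, *Cdh18* and *Cdh19* ranked from 5.45 to 14.5, while *Cdh5*, *Cdh6*, *Cdh22* and *Cdh24* ranked from 60.4 to 96.4 and *Cdh11*, a cadherin of mesenchyme, and *Cdh20* at 37.8 and 28.1. Picking out those 7 low genes followed from their values. Of the other cadherins, *Cdh26* ranked at 90.9, *Cdh13* at 84.6, *Cdh23* at 72.2, *Cdh16* at 66.1 and *Cdh17*, of liver and intestine, at 41.1. The 7 delta protocadherins ran from 32.9 (*Pcdh7*) to 88.4 (*Pcdh1*), with *Pcdh18* at 83.6, *Pcdh8* at 67.5, *Pcdh17* at 48.9, *Pcdh9* at 45.5 and *Pcdh10* at 39.4. *Pcdh12* ranked at 70.1, *Pcdh15*, the tip-link partner of *Cdh23*, at 21.4 among 14 genes of its length, and *Pcdh20* at 18.9.

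Over the 33 members the median rank from mean cover was 60.4 in *Tdg* null hindbrain, 44.3 in heart, 54.1 in carcass and 40.1 in the single liver library. Library by library, the median rank ran from 44.2 to 59.2 in hindbrain, was 33.4 and 50.4 in heart, and 54.5 and 59.1 in carcass. As a group the members therefore lay near the middle of genes of their length, with 9 of 33 at or above percentile 80 and 8 at or below 20 in hindbrain.

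**Figure D2:**
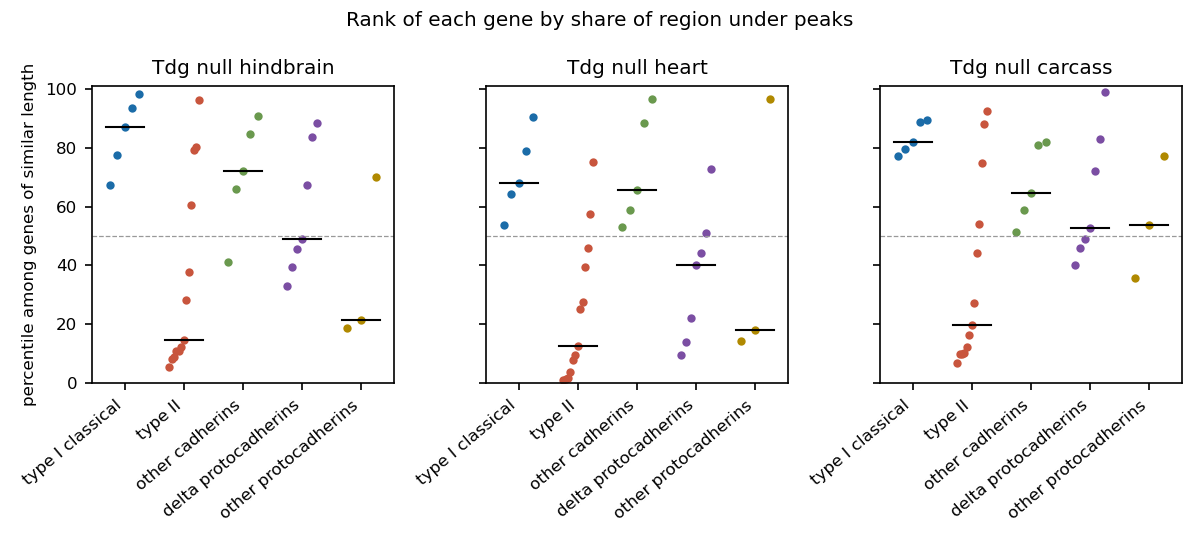
Percentile of each member among autosomal protein-coding genes of similar region length, by class, in *Tdg* null hindbrain, heart and carcass; dots are genes and black lines class medians. Type I cadherins have a median of 87.1 in hindbrain and type II cadherins 14.5.

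Base composition varied with cover. Regions of the 7 low type II genes held 4.55 to 6.11 CpG sites per kb and 34.7 to 36.7% GC, and the other 6 type II genes 6.13 to 27.2 CpG sites per kb. Across the 33 members Spearman's rho between cover and CpG sites per kb was 0.753 in *Tdg* null hindbrain, 0.475 in heart and 0.744 in carcass. It was -0.0909, 0.0349 and 0.237 in WT hindbrain, heart and carcass. Over all genes tested it was 0.447 in *Tdg* null hindbrain, 0.470 in heart, where the members' value was close to it, and 0.348 in carcass. These values are across genes of the same libraries, which are not replicates. Within member regions, the bases under peaks of a *Tdg* null hindbrain library held 17.1 to 18.4 CpG sites per kb and the bases outside them 7.44 to 7.55. WT hindbrain peaks held 21.8 to 29.1 per kb, over 1.10 to 39.5 kb of covered bases in a library.

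Against genes of similar length and of GC content within 2 percentage points, the order of the classes in *Tdg* null hindbrain was another. The type II median was 44.7, and the 7 low genes ranked from 16.7 to 55 with a median of 40. The delta protocadherin median was 87.5, with *Pcdh17* at 96.7, *Pcdh18* at 93.2, *Pcdh10* at 92.9, *Pcdh7* and *Pcdh9* at 87.5, *Pcdh1* at 58.9 and *Pcdh8* at 50.1. *Cdh15* ranked at 95.5, *Cdh6* at 94.8 and *Cdh2* at 93.5, the last against 67.3 by length alone. *Cdh22* ranked at 72.7 and *Cdh4* at 42.9, against 96.4 and 93.4 by length alone. Few genes could be compared with *Cdh13* (4), *Cdh4* (7), *Cdh23* (8) and *Pcdh9* (8), so their ranks on this scale are coarse.

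**Figure D3:**
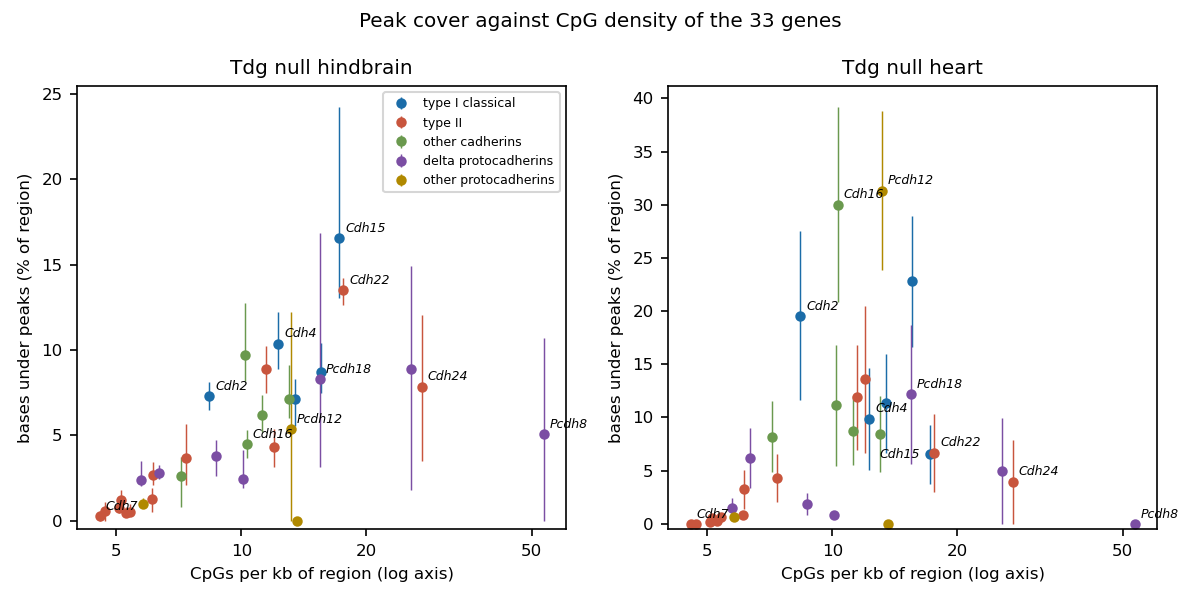
Mean cover of the 33 members (percent of region bases under peaks) against CpG sites per kb of region (log axis) in *Tdg* null hindbrain (4 libraries) and heart (2 libraries), coloured by class; bars run from the lowest to the highest library. *Cdh16*, *Pcdh12* and *Cdh2* reach a higher cover in heart than in hindbrain, and *Cdh15* and *Cdh22* a lower one.

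The second set of comparisons asked whether these genes carry different shares of a library's peaks in different *Tdg* null tissues. For each library the bases covered in a region were divided by the bases expected from the region's length and the library's autosomal cover, with 500 bases added to both, and the log2 ratios, here called enrichment, were compared in 1 limma fit over the 9 *Tdg* null libraries. The 3 contrasts share libraries and are not independent. Between hindbrain and heart, 20 of 31 members differed at an adjusted p under 0.05. Of these, 16 were higher in hindbrain, 51.6% of the members tested, against 13.3% of all genes tested. As a mean over members, so were 26.1% of genes of similar length and 31.5% of genes of similar length and GC. The sets of similar length and GC held 4 to 685 genes, with a median of 85. Members higher in hindbrain were *Cdh4* and *Cdh15* of type I, 9 type II genes (*Cdh7*, *Cdh8*, *Cdh9*, *Cdh10*, *Cdh12*, *Cdh19*, *Cdh20*, *Cdh22* and *Cdh24*), *Cdh23*, and 4 protocadherins (*Pcdh9*, *Pcdh10*, *Pcdh15* and *Pcdh17*). The other 4, *Cdh2*, *Cdh3*, *Cdh16* and *Pcdh12*, were higher in heart, against 23.4% of all genes tested. The median difference, hindbrain minus heart, was 0.64 over the members and -0.10 over all genes tested.

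Heart stood out for *Cdh16* (chr8:107125813-107148296, minus strand). Its cover was 39.2 and 20.8% in the *Tdg* null hearts of pair_a and pair_b, 5.31, 4.49, 3.68 and 4.49% in the 4 *Tdg* null hindbrains, 4.49 and 7.76% in carcass and 6.54% in liver, and no WT library had a peak. Both hearts lay above every other library, with 10 and 6 peaks against 2 or 3. The log2 enrichment in hindbrain minus that in heart was -1.74 ± 0.26 (SE; 3.33-fold lower; limma, adjusted p = 0.000743), and it was 2.10 ± 0.30 higher in heart than in carcass of the same 2 embryos (4.28-fold; limma, adjusted p = 0.000584). The upstream sequence printed above belongs to this gene.

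*Cdh5* and *Pcdh12* are genes of endothelium. *Cdh5* (chr8:106625525-106668402) had a cover of 20.5 and 6.69% in *Tdg* null heart, 2.67 and 8.25% in carcass, 3.79, 3.12, 5.35 and 4.90% in hindbrain and 8.47% in liver. Per library total it was 1.31 ± 0.34 (SE) higher on the log2 scale in heart than in carcass (limma, adjusted p = 0.0124), and without the heart or the carcass of pair_a it was not called. On this scale the single liver library had 1.142 for *Cdh5*, between the hearts of pair_a and pair_b at 1.155 and 0.646. *Pcdh12* had a cover of 38.8 and 23.8% in heart, 9.32 and 9.84% in carcass and 9.84% in liver, beside the hindbrain values given above. Its log2 enrichment in hindbrain minus that in heart was -1.84 ± 0.54 (SE; limma, adjusted p = 0.0213), and leaving out the heart of pair_a or of pair_b ended this call (limma, adjusted p = 0.0915 and 0.107), as did a pseudocount of 100 bases (limma, adjusted p = 0.144). Heart against carcass was not called for *Pcdh12* (log2 difference 1.59 ± 0.62 SE, limma, adjusted p = 0.0650). Cover of the heart in both genes was higher in pair_a than in pair_b, as it was over all autosomes (8.59 and 3.87%).

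*Cdh2* had a cover of 27.5 and 11.6% in *Tdg* null heart, 18.7 and 22.7% in carcass and 9.31% in liver. Relative to the library total, its log2 enrichment in hindbrain minus heart was -0.60 ± 0.17 (SE; 1.52-fold lower; limma, adjusted p = 0.0167). For *Cdh3* it was -0.67 ± 0.22 (SE; 1.59-fold lower; limma, adjusted p = 0.0360). The enrichment of *Cdh3* in the single liver library, 1.79, lay between those of the 2 hearts, 1.64 and 1.85. With the expected bases taken from the regions of the genes tested in place of the autosomes, the median of all genes moved from -0.10 to 0.13, and the part of all calls that was higher in hindbrain moved from 36.2 to 55.4%. *Cdh2* and *Cdh3* were then not called, 21 members were higher in hindbrain, against 19.7% of all genes tested, and *Cdh16* and *Pcdh12* were higher in heart, against 15.8%. Without the heart of pair_a a single member, *Cdh16*, was called as higher in heart, and without that of pair_b 2 members were.

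On the hindbrain side, *Cdh22* (chr2:164937007-165060353, minus strand) had a cover of 10.4 and 3.03% in heart, 22.7 and 26.9% in carcass and 2.79% in liver, beside 12.6 to 14.2% in hindbrain. All 4 hindbrain libraries exceeded both hearts, although the heart of pair_a held more peaks over the genome than any other library. The log2 enrichment was 1.84 ± 0.21 (SE) higher in hindbrain than in heart (3.59-fold; limma, adjusted p = 0.000251). *Cdh4* had 14.7 and 5.10% in heart, 16.9 and 22.5% in carcass and 5.25% in liver. *Cdh15* had 9.33 and 3.73% in heart, 11.7 and 8.40% in carcass and no peak in liver, and was 1.61 ± 0.32 (SE) higher in hindbrain than in heart (limma, adjusted p = 0.00304). Counted by the number of peaks, of which it held 1 to 3 in each hindbrain and heart library, *Cdh15* was not called (log2 difference 0.63, limma, adjusted p = 0.142).

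The low type II genes also differed between the tissues. *Cdh12* (chr15:21041207-21519288) had a cover of 0.354 and 0% in heart, 2.06 and 2.33% in carcass and 0.125% in liver. In peaks this was 4 and 0 in heart, 16 and 18 in carcass and 3 to 13 in hindbrain. The enrichment was 2.58 ± 0.34 (SE) higher in hindbrain than in heart (limma, adjusted p = 0.000426) and in heart minus carcass was -3.17 ± 0.39 (limma, adjusted p = 0.000308). With 1 heart library at 0, the size depends on the bases added: it was 3.73 and -4.42 with 100 bases and 1.65 and -1.99 with 2000, called by limma in each case. *Cdh8* (chr8:101548371-101940371, minus strand), a cadherin of neurons, had 0.863, 1.08, 1.01 and 1.82% in hindbrain, 0.863 and 0.305% in heart, 2.02 and 1.95% in carcass and 0.279% in liver, and was 1.65 ± 0.25 (SE) higher in hindbrain than in heart (limma, adjusted p = 0.000891). *Cdh7* and *Cdh9* had no peak in either heart library, so the size of their difference depends on the added bases. For a region without a peak, enrichment is set by the library's autosomal cover and the added bases alone, so libraries equal at 0 differ. The *Tdg* null hindbrain of litter O also held no peak in either gene. Its enrichment was -3.33 for *Cdh7*, against -4.83 and -3.74 in heart, and -2.48 for *Cdh9*, against -3.89 and -2.86. *Cdh7* had 0.876 and 1.31% in carcass and no peak in liver (heart against carcass, limma, adjusted p = 0.00404), and with peaks of at least 600 bp alone this call ended (limma, adjusted p = 0.619).

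Between heart and carcass, tissues of the same embryos, 14 members differed. *Cdh5* and *Cdh16* were higher in heart, against 28.5% of all genes tested, and 12 were higher in carcass, 38.7% of the members tested, against 9.39% of all genes tested. As a mean over members, 25% of genes of similar length and 29.1% of genes of similar length and GC were higher in carcass. The 12 members were *Cdh4*, *Cdh7*, *Cdh8*, *Cdh10*, *Cdh12*, *Cdh18*, *Cdh22*, *Cdh24*, *Pcdh9*, *Pcdh10*, *Pcdh15* and *Pcdh17*. *Cdh10*, a neuronal type II cadherin, had a cover of 0.811 and 0.760% in heart, 4.004 and 6.13% in carcass, 1.22, 0.507, 1.32 and 1.93% in hindbrain and 0.152% in liver. Its log2 enrichment in heart minus carcass was -2.11 ± 0.36 (SE; limma, adjusted p = 0.00160). *Pcdh15* had 1.01 and 0.264% in heart, 2.19 and 3.23% in carcass, and 0.805, 0.779, 0.999 and 1.30% in hindbrain and 0.528% in liver (heart minus carcass -2.05 ± 0.23, limma, adjusted p = 0.000218). *Pcdh9* had 2.38 and 0.674% in heart, 4.98 and 7.22% in carcass, and 2.00, 2.06, 2.06 and 3.47% in hindbrain and 0.988% in liver (heart minus carcass -1.95 ± 0.26, limma, adjusted p = 0.000429). *Pcdh10* (chr3:45182320-45238488) had 1.03 and 0.688% in heart, 3.61 and 6.36% in carcass, and 1.89, 1.89, 1.89 and 4.13% in hindbrain and 0.860% in liver (heart minus carcass -1.54 ± 0.34, limma, adjusted p = 0.00582). In all 4 of these genes both carcass libraries exceeded both hearts. With the expected bases taken from the genes tested, 17 members were higher in carcass, against 11.8% of all genes tested, and 2 in heart, against 21.7%, and the part of all calls that was higher in heart moved from 75.2 to 64.7%.

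Between hindbrain and carcass 3 members were called, *Cdh15* and *Cdh19* as higher in hindbrain (9.01% of all genes tested) and *Cdh2* as higher in carcass (2.22% of all genes tested). *Cdh15* was 1.22 ± 0.32 (SE) higher on the log2 scale (limma, adjusted p = 0.0360), *Cdh19* 0.996 ± 0.27 higher (limma, adjusted p = 0.0398) and *Cdh2* lower at -0.58 ± 0.17 (limma, adjusted p = 0.0478). *Cdh19* had 0.444 and 0.222% in carcass, 0.444 and 0% in heart and 0 in liver, at most 1 peak in each. Before scaling by the library total, its cover in the hindbrains of litters A, O and Z, 0.333% each, lay below that of the heart and the carcass of pair_a. None of the 3 members was called with a pseudocount of 100 bases, and none when the *Tdg* null hindbrain of litter O or the carcass of pair_b was left out. A single member was called without the hindbrain of litter A, the hindbrain of litter Q or the carcass of pair_a.

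Other members varied less between tissues or more between libraries. *Cdh1* had 16.0 and 6.68% in heart, 10.02 and 15.4% in carcass and 3.92% in liver. *Cdh13* had 12.0 and 5.53% in heart, 10.7 and 13.4% in carcass and 5.70, 5.19, 6.45 and 7.37% in hindbrain and 2.83% in liver, and neither gene was called in any contrast. *Pcdh7*, first described in brain and heart, had 8.98 and 3.34% in heart, 5.81 and 9.29% in carcass and 2.42, 2.57, 2.81 and 3.27% in hindbrain and 3.05% in liver and was not called either. *Pcdh18* had 33.9 and 38.9% in carcass, the highest cover of any member there, 18.7 and 5.62% in heart, and 4.37, 8.74, 16.9 and 3.12% in hindbrain, a wide spread in a region of 16.0 kb. *Pcdh1* ranged from 1.78 to 14.9% in hindbrain, and *Pcdh8* from 0 to 10.7%. *Pcdh20* had a peak in the 2 *Tdg* null carcass libraries and in no other library.

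**Figure D4:**
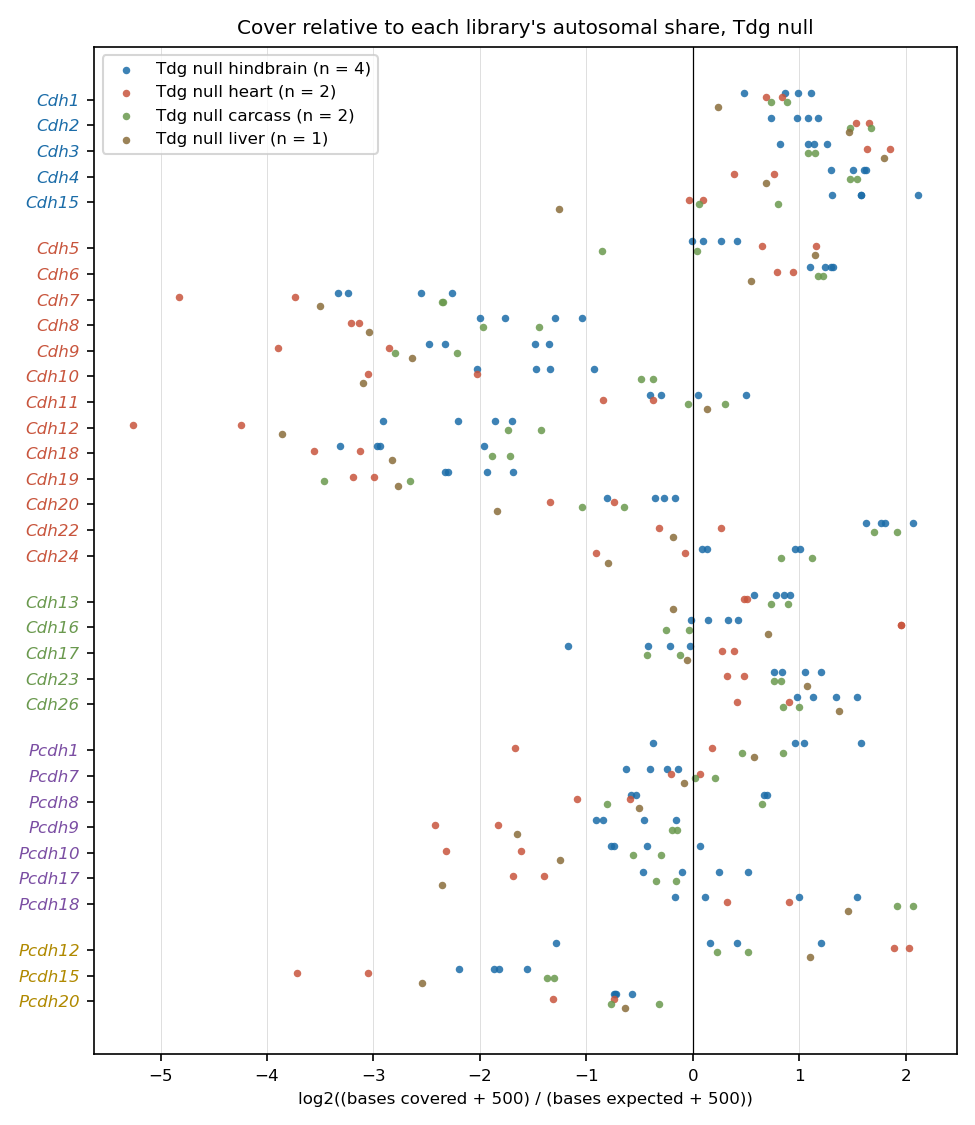
Enrichment of each member, log2((bases covered + 500) / (bases expected + 500)), in the 4 hindbrain, 2 heart, 2 carcass and 1 liver libraries from *Tdg* null embryos; each dot is a library and 0 is the library's autosomal share. Heart dots of *Cdh16* and *Pcdh12* lie near 2, to the right of all others of those genes, and those of *Cdh12* lie below -4.

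With bases pooled over the members, coding sequence was covered more densely than introns in each of the 9 *Tdg* null libraries. In *Tdg* null hindbrain 8.01 to 11.6% of the members' coding bases were under peaks, against 2.84 to 4.13% of intron bases, 3.57 to 7.25% of UTR bases and 1.26 to 5.79% of the 1 kb upstream. In all 4 libraries coding sequence was above intron. Heart had 18.1 and 7.09% of coding bases against 6.02 and 2.39% of intron bases, carcass 14.6 and 19.6% against 5.995 and 8.11%, and liver 4.29% against 2.10%. In WT, 4 of the 10 libraries (hindbrain of A and Z, heart of pair_a and liver of pair_b) had no coding base under a peak and 0.0133 to 0.0752% of intron bases, and in the other 6 coding sequence was above intron. Introns make up 8242.6 of the 8512.5 kb of member regions, and coding sequence 103 kb. In this pooling long genes weigh most in the intron values, so differences between genes are mixed with position inside genes. Coding sequence and introns were not compared within single genes or in other genes.

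In hindbrain, gene starts were poor in peaks and rich in CpG sites. The first 0.5 kb of the members held 51.5 CpG sites per kb and had a mean cover of 2.15% (0.903 to 3.03% over the 4 libraries) in *Tdg* null hindbrain. At 2 to 5 kb from the start, with 15.1 CpG sites per kb, cover was 5.66% (3.61 to 6.77%), and past 100 kb, with 7.24 per kb, 3.11% (2.64 to 3.85%). All 33 members reach the bin of 2 to 5 kb but 16 reach past 100 kb. These bins therefore hold different genes, and a fall in cover within genes was not tested. Carcass had 6.93% in the first 0.5 kb in both libraries, a mean of 14.6% at 2 to 5 kb, and 5.72 and 7.70% past 100 kb, 1 library below its start and 1 above. Heart had means of 6.49% (4.82 to 8.15%), 10.3% (4.11 to 16.4%) and 3.47% (1.93 to 5.02%) in these bins, and the single liver library 6.06, 6.28 and 1.80%. Of 19 members with at least 30 CpG sites per kb within 500 bp of the start, 17 had no peak there in any *Tdg* null library, and *Cdh4* and *Pcdh10* had a peak in a single library each. Among the genes tested with such a start, 70.9% had no peak there. Of the 14 members with fewer CpG sites 7 had a peak, against 45.4% of such genes tested. In *Tdg* null hindbrain 6 of 33 members had a peak at the start in at least 1 library, against 18.6% of all genes tested. At the start of *Cdh16* (12.0 CpG sites per kb) both heart libraries and no other library had a peak.

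**Figure D5:**
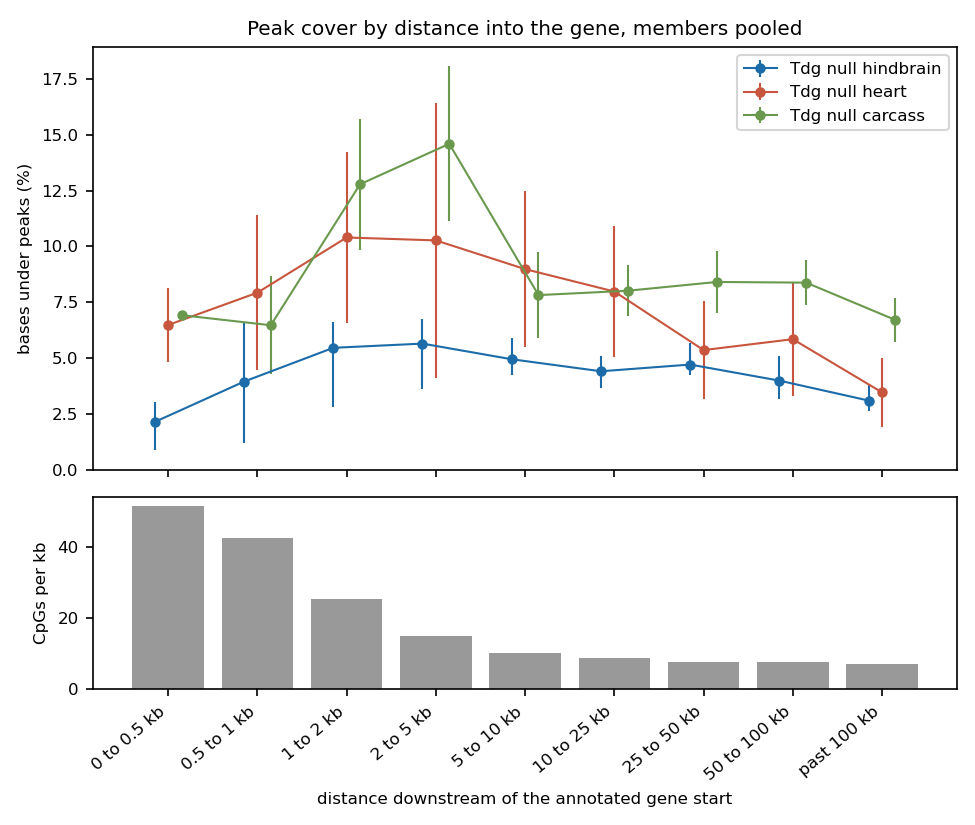
Mean cover of the members by distance from the gene start (kb) in *Tdg* null hindbrain, heart and carcass, with bars from the lowest to the highest library, beside CpG sites per kb of the same bins. Cover is lowest in the first 0.5 kb in hindbrain (2.15%), where CpG density is highest (51.5 per kb). Bins up to 5 kb hold all 33 members and later bins fewer, with 16 past 100 kb.

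Peaks of separate libraries fell on the same places in part of the genes. All 9 *Tdg* null libraries shared 26 stretches in 9 members, 15.7 kb in all, of which 24 lay wholly in introns. Introns make up 8242.6 of the 8512.5 kb of member regions, and shared stretches were not counted in other genes. The CpG density of the shared stretches was 19.8 per kb, against 7.86 over all member regions and 15.0 to 18.4 under peaks of single *Tdg* null libraries. *Cdh2* and *Cdh4* held 6 each, *Cdh23* 4, *Cdh13* 3, *Cdh6* and *Pcdh9* 2 each, and *Cdh3*, *Cdh18* and *Cdh22* 1 each. A WT peak touched 14 of the 26. The *Cdh23* stretch printed above is 1000 bp long, lies 129.8 kb from the gene start and carried a WT peak in 1 library, while the *Cdh6* stretch (900 bp) carried one in 2 and the *Cdh13* stretch (900 bp) in none. *Cdh18*, one of the low type II genes, had its shared stretch 903.4 kb from the start, under a peak of 4 WT libraries as well.

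Under all 4 hindbrain libraries and no heart library lay 136 stretches in 24 members (59.8 kb, 19.3 CpG sites per kb), and 45 of them had a WT peak. The reverse, both hearts and no hindbrain, gave 236 stretches in 24 members (113.1 kb, 14.8 CpG sites per kb), and 18 had a WT peak. Requiring 4 libraries is stricter than requiring 2, so these counts are not compared. *Cdh16* held 7 and *Pcdh12* 5 of the heart stretches. *Cdh13* (71), *Cdh2* (31) and *Cdh4* (21) held most. *Pcdh15* (7), *Pcdh9* (6) and *Cdh18* (4), with longer regions than *Cdh2* and *Cdh4*, held fewer. On the hindbrain side *Cdh13* held 29, *Cdh4* 20, *Pcdh9* 13, *Cdh23* 10, and *Cdh22* and *Pcdh15* 9 each, among them the 2100 bp stretch of *Cdh22* whose middle is printed above, with 47 CpG sites. Hindbrain stretches under no carcass peak numbered 28, and the longest, with 900 bp, were those of *Cdh15*, with 41 CpG sites, and of *Cdh4*.

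Genes linked to cadherins or to their catenins were counted from lists chosen with earlier results of these data known. Of 12 genes listed as cytoplasmic partners of either, afadin listed under an older and a newer symbol, all 12 were found in the annotation. Each was without overlap between genotypes in hindbrain and higher in *Tdg* null in 6 of 6 litters, as were 64.3 and 64.2% of all genes tested. Between hindbrain and heart, 8 of the 12 were higher in heart, against 23.4% of all genes tested, with a median difference of -0.82 on the log2 scale: *Ctnnb1* (beta-catenin), *Ctnnd1* (p120-catenin), *Jup* (plakoglobin), *Ctnna3*, *Ctnnbip1*, *Pkp4*, *Vcl* (vinculin) and *Mllt4* (afadin). *Ctnnb1* had a mean cover of 8.19% in hindbrain and 28.6% in heart (log2 difference, hindbrain minus heart, -1.12 ± 0.32 SE; limma, adjusted p = 0.0194). Higher in hindbrain were *Ctnna2*, the neuronal alpha-catenin, by 2.61 ± 0.24 (limma, adjusted p = 8.96e-05), and *Ctnnd2*, the neuronal delta-catenin, by 1.17 ± 0.16 (limma, adjusted p = 0.000579). With the expected bases taken from the genes tested, 6 of the 12 were higher in heart, *Ctnnb1* and *Ctnna3* no longer among them, against 15.8% of all genes tested, and both neuronal catenins were higher in hindbrain. Between heart and carcass 8 were higher in heart, against 28.5% of all genes tested (5, against 21.7%, with the other expected bases), and *Ctnna2* and *Ctnnd2* were higher in carcass. None of the 12 was called between hindbrain and carcass by limma.

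Of the atypical cadherins, 11 of 12 were found, and all 11 were without overlap between genotypes in hindbrain, against 64.3% of all genes tested. *Fat3*, *Fat4*, *Celsr2*, *Clstn1*, *Clstn2* and *Clstn3* were higher in hindbrain than in heart, against 13.3% of all genes tested, and *Fat1*, a giant cadherin, was higher in heart (log2 difference, hindbrain minus heart, -0.58 ± 0.20 SE; limma, adjusted p = 0.0420). *Clstn3*, a calsyntenin of synapses, differed by 2.05 ± 0.36 (SE; limma, adjusted p = 0.00182). With the expected bases taken from the genes tested, *Fat2* joined these 6, against 19.7% of all genes tested, and *Fat1* was not called. Between hindbrain and carcass, *Clstn1*, *Clstn3* and *Fat2* were higher in hindbrain, against 9.01% of all genes tested, and *Fat3* was higher in carcass (-0.68 ± 0.18 SE; limma, adjusted p = 0.0380). Between heart and carcass, *Fat3*, *Fat4*, *Celsr2* and *Clstn2* were higher in carcass, against 9.39% of all genes tested. Of 5 repressors of cadherin transcription, *Zeb1* and *Zeb2* had regions long enough to be tested, and both were higher in heart, against 23.4% of all genes tested (15.8% with the other expected bases, where both were called too), *Zeb1* with a difference, hindbrain minus heart, of -1.83 ± 0.23 (SE; limma, adjusted p = 0.000381) and *Zeb2* with -0.80 ± 0.18 (SE; limma, adjusted p = 0.00671). *Snai1*, *Snai2* and *Twist1* had regions under 10 kb, and *Twist1* had no peak in any *Tdg* null library.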

How the data were processed

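5fC pull-down DNA from E11.5 hindbrain, heart, liver and carcass had been sequenced in 20 libraries. Per the paper's methods and the labels, the authors trimmed reads with Trim Galore, aligned them to NCBIM37 (mm9) with Bowtie2 and called peaks with MACS in each library on its own. The deposited files give a first and last base position for every peak, in steps of 100 bp, and were read as 1-based and inclusive. They hold no counts, heights or scores, so depth and the precision it gives are unknown, a longer peak weighs more than a short one, and no count model was used. Whether an input library was used is not given in the sources used here. No value column lacked a sample.

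Regions were gene bodies plus 1 kb on each side, and the 14001 autosomal protein-coding genes with regions of at least 10 kb were tested. Genotypes were compared by two-sided exact permutation tests (4 against 4 hindbrains, and sign flips over 6 litters), and tissues by limma 3.58.1 in R 4.3.3 on log2((bases covered + 500) / (bases expected + 500)), with the log10 region length as trend, each with Benjamini-Hochberg adjustment over all genes tested and a threshold of 0.05. Other values came from Python 3.11.15. The limma steps were tested on simulated data. Alternatives were the pseudocount, the flanks, peak numbers, peaks of at least 600 bp, another expected share, no length filter, GC content, a litter block and leaving out each library.

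Members and lists were chosen with earlier results of these data known. Every member is named, and values for every group are given for the 6 members with the largest called difference in each tissue contrast, the 3 highest and 3 lowest ranks in *Tdg* null hindbrain, and *Cdh1*, *Cdh2*, *Cdh5*, *Cdh13*, *Pcdh7* and *Pcdh10*. The labels pair WT and *Tdg* null embryos by litter. Across genes, deviations from the group means of the hindbrain libraries paired in this way correlated at 0.049 (A), 0.025 (O), -0.022 (Q) and -0.015 (Z). The *Tdg* null liver of pair_b was left out for its 228 peaks. Sequences were read from NCBIM37, and none were taken from the chromosome that holds *Cdh2*, *Pcdh1* and *Pcdh12*.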

Additional observations from a re-analysis of the deposited data

Results flagged for a closer look

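In hindbrain, 32 sets of 4 libraries, members with values given above in 1 genotype, were examined for a library far from the others by Dixon's criterion, which chance meets in about 1 of 20 sets of normally distributed values, and 5 met it. That rate does not hold here, since in 4 of the 5 the other libraries had equal values and any different value meets the criterion. All 5 belong to 3 genes. *Cdh19* had a cover of 0.444% in the WT hindbrain of litter Q and 0 in the other WT hindbrains, and 0.776% in the *Tdg* null hindbrain of litter Q against 0.333% in each of the others. *Pcdh10* had 0.516% in the WT hindbrain of litter Q and 0 in the other WT libraries. In *Tdg* null hindbrain, litter Z stood apart for *Pcdh10*, with 4.13% against 1.89% in each of the others, and for *Pcdh9*, with 3.47% against 2.00 to 2.06%. The WT library of litter Q and the *Tdg* null library of litter Z also covered most of the autosomes within their groups (0.484 and 3.89%), and the part of this in the values was not tested.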

How the results depend on the processing

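None of the called differences recomputed for single members turned its direction under the alternatives run, while the median over all genes, hindbrain minus heart, turned from -0.10 to 0.13 with the expected bases taken from the genes tested. Dividing by each library's autosomal total gave 10 members without overlap in hindbrain (26 before) and 4 higher in 6 of 6 litters (28 before), and the other alternatives, leaving out libraries or litters included, gave 20 to 28 and 20 to 30, both lowest with peaks of at least 600 bp. Counted as paired litters in place of unpaired libraries, 28 members were higher in *Tdg* null in all 4 hindbrain litters, against 65.3% of all genes tested. With litter as a block, limma called the same numbers of members, 20, 3 and 14. The hindbrain against heart count was 15 to 23 under other settings and 14 to 20 without single libraries, with 14 and 15 when the heart of pair_a or of pair_b was left out. The heart against carcass count was 11 to 19 and 11 to 16. The hindbrain against carcass count of 3 was unstable: 0 with a pseudocount of 100 bases (limma), 7 with 2000, 0 by number of peaks, 1 with peaks of at least 600 bp, 1 without the length filter, and 0 to 4 without single libraries. The median rank in *Tdg* null hindbrain, 60.4, fell below the middle of its scale by peaks per kb (49.1) and for the gene body alone (47.7), and was 53.6 to 61.1 without single libraries. That in carcass, 54.1, was 62.1 with GC content taken into account and 54.5 to 59.1 without single libraries. The causes were not tested. Heart and carcass have 2 libraries each, so without 1 of them the lone library is assumed to vary like the other groups, and with peak positions alone, small regions holding 1 to 3 peaks move in large steps.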
